A study of Homo sapiens with 10 samples.

Results

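Chromosome arm 2p, the short arm of human chromosome 2, was examined in peak lists of H4R3me2s, the symmetric dimethylation of arginine 3 on histone H4. All peaks on chromosome 2 that end below 93.9 Mb (GRCh38) were taken. These were 2692 of 67753 peaks in the 9 lists of single libraries called over Input, and 3313 of 63273 peaks in the 4 pooled lists. The cells were SH-SY5Y, a line from a human neuroblastoma in which retinoic acid induces neuronal traits, grown in 10% FCS with 300 µg/ml zeocin. Naive cells (n = 3) were not differentiated. BDNF cells (n = 3) were differentiated over 10 days, first in 3% FCS with retinoic acid at 10 µM for 6 days, then in serum-free medium with BDNF at 50 ng/ml for 4 days. BDNF+Dox cells (n = 3) were differentiated alike and received 1 µg/ml doxycycline for 3 days, which induces α-synuclein from a Tet-on construct. All 9 ChIP libraries share 1 Input library, made without antibody, as their background. No group with doxycycline but without induced α-synuclein was analysed here, so the drug and the protein cannot be told apart. Separate cultures are not stated for the replicates, and p-values therefore measure only the spread between these libraries, which may be technical.

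H4R3me2s is written mainly by the methyltransferase PRMT5 and is best known from repressed chromatin. Arm 2p carries MYCN, a transcription factor gene whose amplification marks high-risk neuroblastoma, and ALK, a receptor tyrosine kinase gene that is mutated or gained in a share of these tumours. It also carries some of the longest neuronal genes of the genome, among them the alpha-catenin gene CTNNA2. Neuroblastoma lines often hold extra copies of parts of 2p, and extra copies raise the reads of ChIP and control libraries alike. A peak here is a stretch, with a median length between 154 and 194.5 bases in the libraries, in which the ChIP reads exceeded those of the control at a p threshold of 0.01, a lenient setting.

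Peaks on 2p seldom lay at a start site. RefSeq (GRCh38.p14) gave 1101 windows of 300 bases on 2p, each with 250 bases before and 50 after the start of a transcript, for 843 gene symbols. The windows covered 0.312% of the arm, and 3 of the 2692 library peaks (0.111%) touched one. The share was much the same over chromosomes 1 to 22 and X, at 87 of 67301 library peaks (0.129%). Over chromosomes 1 to 22 and X, 88 of 34961 windows (0.252%) held a library peak and 30 (0.0858%) a pooled narrow peak. On 2p these were 3 windows in each case, all at genes of long noncoding RNAs. The 3 under a library peak, and the pair under the strongest pooled peaks, are printed because they are the start sites of 2p at which the mark was called, with the bases under the peak in capitals, 5′ to 3′ on the strand of the gene.
LOC105374821: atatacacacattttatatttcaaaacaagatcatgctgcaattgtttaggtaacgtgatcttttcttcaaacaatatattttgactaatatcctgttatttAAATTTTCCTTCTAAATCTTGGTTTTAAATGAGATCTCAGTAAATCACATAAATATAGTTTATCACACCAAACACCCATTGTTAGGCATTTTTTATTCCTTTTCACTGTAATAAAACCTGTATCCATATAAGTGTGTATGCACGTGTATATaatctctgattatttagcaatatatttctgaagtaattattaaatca
LOC107985869: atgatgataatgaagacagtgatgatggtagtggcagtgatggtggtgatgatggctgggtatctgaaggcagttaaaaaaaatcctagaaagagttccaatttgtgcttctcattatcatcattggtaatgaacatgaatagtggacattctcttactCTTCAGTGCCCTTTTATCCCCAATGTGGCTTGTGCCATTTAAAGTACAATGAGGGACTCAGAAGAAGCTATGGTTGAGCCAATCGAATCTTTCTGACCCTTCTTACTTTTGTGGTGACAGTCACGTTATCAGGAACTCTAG
LINC02850: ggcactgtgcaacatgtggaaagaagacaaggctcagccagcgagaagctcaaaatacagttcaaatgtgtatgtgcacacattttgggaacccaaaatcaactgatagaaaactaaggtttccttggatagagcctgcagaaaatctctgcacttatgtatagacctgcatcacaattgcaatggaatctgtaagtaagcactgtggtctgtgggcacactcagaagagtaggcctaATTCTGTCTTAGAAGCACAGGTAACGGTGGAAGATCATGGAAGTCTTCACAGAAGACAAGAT
LOC107985843: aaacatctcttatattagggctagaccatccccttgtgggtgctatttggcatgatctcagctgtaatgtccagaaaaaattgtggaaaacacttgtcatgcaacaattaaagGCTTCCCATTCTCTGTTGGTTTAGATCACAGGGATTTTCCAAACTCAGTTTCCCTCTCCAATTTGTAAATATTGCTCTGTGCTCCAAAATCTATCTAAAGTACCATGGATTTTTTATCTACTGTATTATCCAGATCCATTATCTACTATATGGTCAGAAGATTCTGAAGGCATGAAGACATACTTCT
EML4-AS1: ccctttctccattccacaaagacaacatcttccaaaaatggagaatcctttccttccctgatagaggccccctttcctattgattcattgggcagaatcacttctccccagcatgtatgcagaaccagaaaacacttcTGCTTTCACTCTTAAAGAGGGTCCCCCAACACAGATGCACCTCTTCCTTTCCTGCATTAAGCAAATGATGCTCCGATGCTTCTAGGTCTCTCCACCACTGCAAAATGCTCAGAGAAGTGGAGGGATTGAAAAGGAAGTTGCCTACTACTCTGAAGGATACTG
The window of LOC105374821 lay at chr2:78785746-78786045 on the plus strand and was touched by a peak of Naive replicate 1. That of LOC107985869, at chr2:37743179-37743478 on the plus strand, was touched by a peak of BDNF replicate 1. LINC02850, at chr2:20859533-20859832 on the plus strand, was touched by a peak of BDNF+Dox replicate 2. LOC107985843 lay at chr2:5605117-5605416 on the minus strand, under a peak over BDNF which the authors' deposited table gives a fold of 2.78 and q = 0.850. EML4-AS1 lay at chr2:42170182-42170481 on the minus strand, under a peak over Naive which the authors' deposited table gives a fold of 3.19 and q = 0.666. The fold is the ratio of ChIP reads to the local background of the control, and q is the authors' p-value adjusted over the list. No window was touched in more than 1 library.

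The touched windows were poor in G and C. The 3 windows with a library peak held 26.3%, 40.7% and 43.3% G or C and 2 CpG dinucleotides each, and the 3 with a pooled narrow peak held between 37.3% and 46.0%. All 1101 windows of 2p had a median of 57.3% G or C and 14 CpG dinucleotides. The 88 windows with a library peak over the whole genome had a median of 40.7% and 2 CpG dinucleotides, against 58.7% and 14 over all 34961 windows. The start windows of MYCN (58.7% G or C, chr2:15940300-15940599, plus strand) and of ALK (71.0%, chr2:29921537-29921836, minus strand) held no library or pooled narrow peak.

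The share of peaks on 2p overlapped between the groups. It was 4.47%, 4.37% and 3.59% of peaks on chromosomes 1 to 22 and X in the Naive libraries 1 to 3. In the BDNF libraries it was 3.24%, 4.13% and 3.90%, and in the BDNF+Dox libraries 3.81%, 3.68% and 4.70%. Their means were 4.14% ± 0.478 (SD, n = 3) for Naive, 3.76% ± 0.459 for BDNF and 4.06% ± 0.553 for BDNF+Dox. The differences did not exceed the spread between libraries (exact permutation test on the F ratio with all 1680 assignments, p = 0.607, and 0.607 after Benjamini-Hochberg adjustment over 3 measures). BDNF+Dox stood 0.305 percentage points above BDNF (exact two-sided permutation p = 0.6, where 0.1 is the smallest that 3 against 3 allow). Without BDNF+Dox replicate 3 that difference was -0.0120 points. The number of 2p peaks followed the size of each list, at 542, 255 and 282 in Naive, 198, 186 and 267 in BDNF and 412, 254 and 296 in BDNF+Dox. Between 4505 and 12135 peaks were called per library, from 17164402 to 18928589 reads kept, so list size varied far more than depth.

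Peaks were denser on 2p than on the pooled rest of the genome in every library, though not denser than on every chromosome. The arm holds 3.20% of the usable length (93 of 2902 Mb in bins of 1 Mb with a gene or a peak). Peaks per usable Mb on 2p over those on the rest of the genome gave a ratio of 1.25 as a geometric mean, from 1.01 in BDNF replicate 1 to 1.49 in BDNF+Dox replicate 3. The ratio was above 1 in 9 of 9 libraries (exact two-sided sign-flip permutation test, p = 0.00391, the smallest that 9 libraries allow, adjusted over 2 ratios 0.00781). Against the long arm of the same chromosome the ratio was 1.22 and above 1 in 8 of 9 libraries (exact permutation p = 0.0117, adjusted 0.0117), with BDNF replicate 1 at 0.970. All libraries came from the same cell line and were called over the same Input, so their ratios are not independent. Both tests treat them as independent and measure only the spread between libraries. Per usable Mb and library 2p held 3.22 peaks on average, chromosome 4 held 3.25 and chromosome 7 held 4.09. By group the ratio to the rest was 1.31 ± 0.157 (SD, n = 3) for Naive, 1.18 ± 0.150 for BDNF libraries and 1.28 ± 0.182 for BDNF+Dox, which did not differ beyond the spread (exact permutation p = 0.625).

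**Figure D1:**
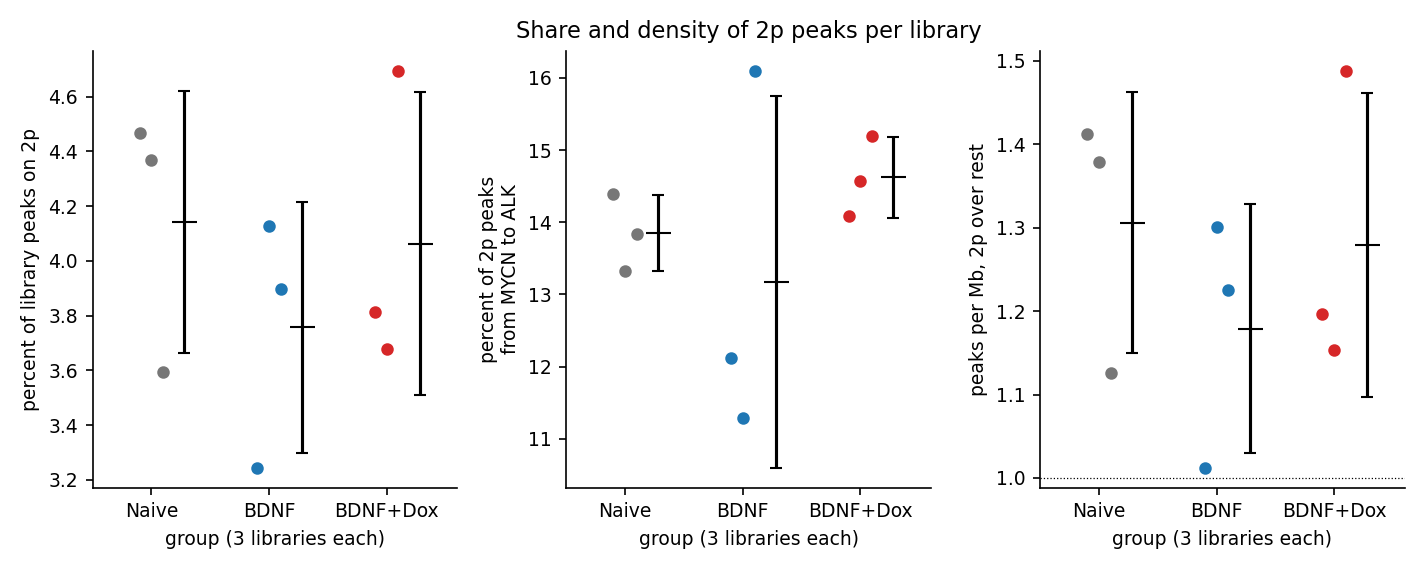
Share and density of 2p peaks per library. Each point is a library, grouped by condition on the horizontal axis, and the bar beside it gives the mean and SD (n = 3) of the percent of library peaks on 2p (left), the percent of 2p peaks from MYCN to ALK (middle) and the ratio of peaks per Mb on 2p to the rest (right). The groups overlap in every panel, and all 9 libraries lie above a ratio of 1 in the right panel.

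In the pooled lists, where the merged BDNF+Dox reads were called directly over the merged reads of another group, 2p held a share above that in any library. Over BDNF it held 512 of 9850 narrow peaks (5.20%, exact 95% binomial interval 4.77% to 5.65%, counting error only) and 1284 of 25226 broad peaks (5.09%). Over Naive it held 437 of 7882 narrow peaks (5.54%, 5.05% to 6.07%) and 1080 of 20165 broad peaks (5.36%). Peaks per Mb were 1.66 times those of the rest of the genome in the narrow list over BDNF and 1.77 times in that over Naive. Chromosome 7 was denser still in both, with 6.255 narrow peaks per Mb over BDNF and 4.758 over Naive. On 2p these were 5.505 and 4.699, and on chromosome 1 they were 4.83 and 4.009. Both pooled lists use the same merged BDNF+Dox reads and are not independent. They carry no spread between replicates and no test was made.

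Peaks were denser in the outer part of the arm. Below 50 Mb the 9 libraries held 33.5 peaks per Mb in sum, and from 50 Mb on 23.6. Per library the ratio of the densities was 1.49 ± 0.361 (SD, n = 9), from 0.991 in Naive replicate 3 to 2.00 in BDNF replicate 2. In the pooled lists it was larger, with 7.38 against 3.33 narrow peaks per Mb over BDNF and 6.64 against 2.44 over Naive. The point of 50 Mb was chosen after the local background described next was seen, and these ratios are given without a test. In steps of 2 Mb from 40 to 62 Mb, the libraries held 83, 65, 53, 55, 73, 69, 47, 43, 106, 61 and 28 peaks. The number thus varied from step to step on both sides, and was 73 just before 50 Mb and 69 just after.

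The control reads under the peaks also changed along the arm, and the point of 50 Mb was placed by them, so that their difference on its sides is a description. The deposited height and fold of a peak give the local background that the caller used, here expressed relative to the genome background of the same list. Under library peaks the Input had a median relative background of 1.38 below 50 Mb and of 1.04 from 50 Mb on, beside 1.03 on the long arm. The merged BDNF reads gave 1.38 and 1.09 under narrow peaks, and the merged Naive reads 1.31 and 1.06. In steps of 2 Mb, the Input background under library peaks was 1.39 from 44 to 46 Mb, 1.31 from 46 to 48 Mb, 1.11 from 48 to 50 Mb and 1.06 from 50 to 52 Mb. The fall from the high to the low stretch thus lay between 46 and 50 Mb. Chromosome 7, known to be gained in this line, stood at 1.42, the highest of all chromosomes, and the 19 chromosomes other than 1, 2, 7 and 17 lay between 1.00 and 1.05. The part of this background in the density of peaks on 2p was not tested.

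**Figure D2:**
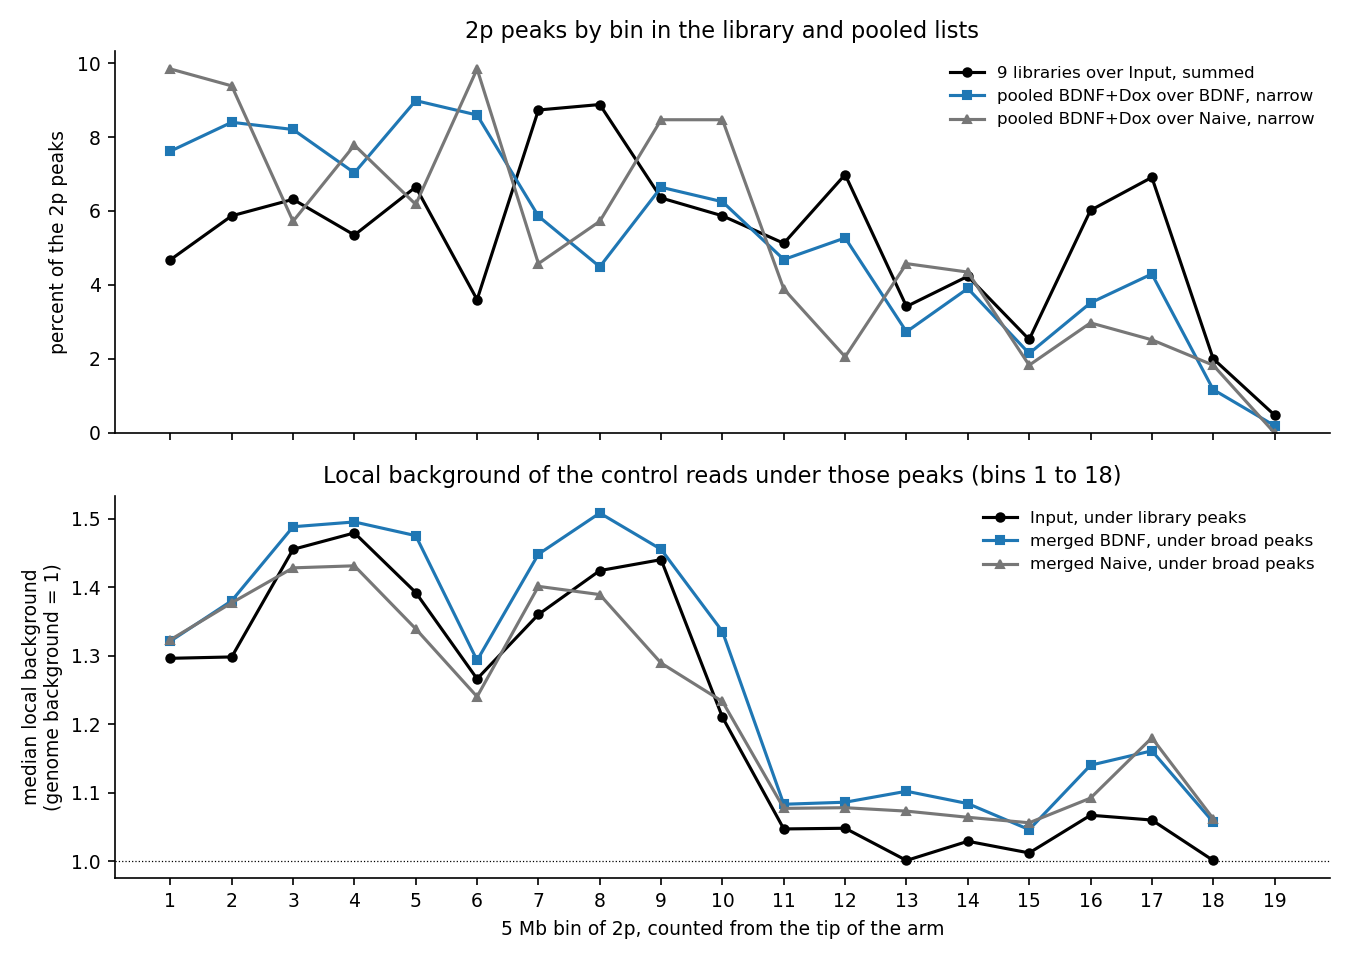
Peaks and local background along 2p. The upper panel gives, per 5 Mb bin counted from the tip of the arm, the percent of the 2p peaks in the 9 libraries summed and in each pooled narrow list, and the lower panel gives the median local background of the control reads, with the genome background as 1. The background falls between bins 9 and 11, and bin 6 is low in the libraries (97 of 2692 peaks) and high in the pooled lists (8.59% and 9.84%).

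Within the arm, the library peaks were densest in bins 7 and 8 of 5 Mb, counted from the tip (30 to 40 Mb), with 235 and 239 peaks over the 9 libraries. This stretch holds LTBP1, BIRC6 and the long noncoding RNA gene LINC01317. Further maxima lay in bin 12 (55 to 60 Mb, 188 peaks) and in bins 16 and 17 (75 to 85 Mb, 162 and 186 peaks), the latter around LRRTM4 and CTNNA2. The bins with fewest were bin 13 (92 peaks), bin 15 (68 peaks), bin 18 (54) and bin 19 next to the centromere (13). Bins 6 and 15 held the most protein-coding genes, 68 and 69 each, and were both low in library peaks (97 and 68).

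The 25 to 30 Mb bin, which contains ALK, BABAM2 and DTNB, held a larger share of the pooled lists than of the library lists. Its peaks numbered 14, 9 and 8 in the Naive libraries, 9, 4 and 9 in BDNF and 17, 10 and 17 in BDNF+Dox. The BDNF+Dox libraries lay at or above every other library but Naive replicate 1. How often this holds over all bins of the genome was not counted. As a share of 2p peaks this was 2.98% ± 0.490 (SD, n = 3) for Naive, 3.36% ± 1.20 for BDNF libraries and 4.60% ± 0.993 for BDNF+Dox. The difference between BDNF+Dox and BDNF was 0.55 ± 0.38 (log2, SE), with an adjusted p of 0.745 by limma. Over BDNF the bin held 44 of the 512 narrow peaks, and over Naive 43 of the 437, the highest count over Naive, shared with bin 1. Its share of the pooled 2p peaks was 2.39 times its share of library 2p peaks over BDNF and 2.73 times over Naive. These were the highest of the 19 bins. The lowest were those of bin 19 (0.404 over BDNF and 0 over Naive, with 13 library peaks), and over Naive those of bins 12 (0.295) and 17 (0.364) came next. In bins 7 and 8 the ratio was 0.671 and 0.506 over BDNF and 0.524 and 0.644 over Naive. The part of gene content in this contrast was not tested.

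No 5 Mb bin of 2p passed the test between groups. limma was fitted on log2 of (peaks + 0.5) per 1000 library peaks over 578 bins of the genome, and 0% of bins passed an adjusted p of 0.05 in any of the 3 comparisons. The tested bins of 2p numbered 18, with 0 called. At an unadjusted p of 0.05, 39 genomic bins passed for BDNF+Dox against BDNF, 55 for BDNF+Dox against Naive and 30 for BDNF against Naive, of which 0, 1 and 2 were on 2p. Among the 2p bins the differences ran from -0.38 to 0.60 for BDNF+Dox minus BDNF, from -0.85 to 0.57 for BDNF+Dox minus Naive and from -0.97 to 0.36 for BDNF minus Naive (log2), with SEs of 0.27 to 0.55. On simulated lists with 4-fold changes the same fit recovered 89.6% of changed bins. The simulated counts varied by counting error only, without further spread between libraries, so this share can overstate what was detectable here.

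The lowest of these values belonged to bins 11 and 17. Bin 11 held 27, 14 and 26 peaks in Naive, 5, 7 and 11 in BDNF and 19, 18 and 11 in BDNF+Dox. The fitted difference of BDNF minus Naive was -0.97 ± 0.34 (log2, SE, limma adjusted p = 0.576). Bin 17, with part of CTNNA2, held 44, 24 and 26 peaks in Naive and 29, 10 and 13 in BDNF+Dox, a fitted difference of -0.85 (limma adjusted p = 0.458). The 2 groups overlapped in number there. As a percent of the 2p peaks the bin held 8.12% to 9.41% in Naive and 3.94% to 7.04% in BDNF+Dox. Both bins were picked for their low values. The share of all tested bins in which groups stand apart was not counted.

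**Figure D3:**
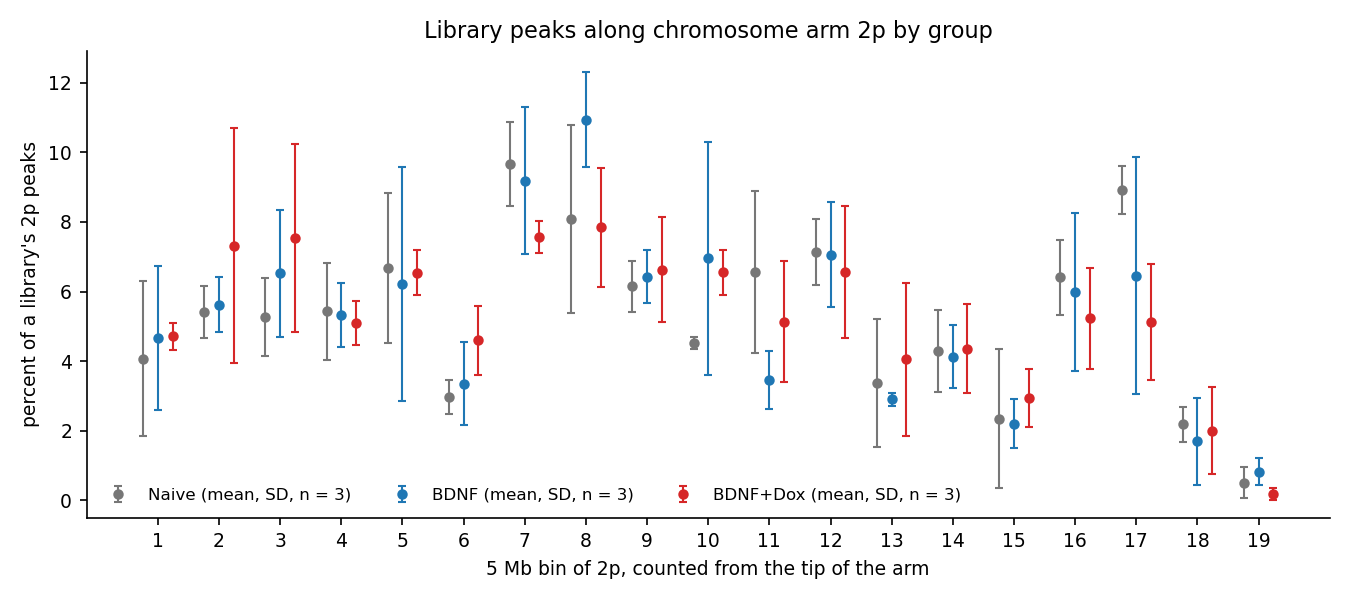
Library peaks along 2p by group. The horizontal axis gives the 5 Mb bin counted from the tip of the arm and the vertical axis the percent of a library's 2p peaks in it, as mean and SD of 3 libraries per group. Bins 7, 8, 12 and 17 are high, bins 6, 13, 15, 18 and 19 are low, and the error bars of the groups overlap or nearly overlap in most bins.

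Peaks were spread over genes much as the arm itself is. Of the 2692 library peaks, 37.1% lay inside a protein-coding gene, which make up 38.4% of the arm. A further 21.0% lay only in another gene and 41.9% in no annotated gene. Across these classes, 2.04% of the peaks lay within 2 kb of an end of a protein-coding gene. The annotation held gene spans, so exons, introns and UTRs were not told apart. In the pooled narrow lists the share at gene ends was 3.52% over BDNF and 5.26% over Naive. A library peak was present in 259 of 471 protein-coding genes (54.99%, against 35.1% of the 19970 in the genome). A narrow peak over BDNF was present in 125 (26.5%, against 14.1%) and one over Naive in 96 (20.4%, against 12.4%). Gene lengths were not matched in these shares.

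The genes with most library peaks were long. LRRTM4, a postsynaptic adhesion gene of 775 kb, held 35, at 8, 4 and 2 in Naive, 1, 1 and 7 in BDNF and 6, 4 and 2 in BDNF+Dox, with all groups overlapping. NBAS, a gene of vesicle transport separated from MYCN by DDX1, held 33, at 9, 2 and 2, then 2, 3 and 3, then 7, 1 and 4 in the same order of groups. LTBP1, which binds latent TGF-beta, held 29 in 453 kb, at 5, 3 and 6 in Naive, 3, 2 and 2 in BDNF and 3, 3 and 2 in BDNF+Dox. CTNNA2, the neuronal alpha-catenin and at 1463 kb the longest of them, held 25.

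Density per length ordered these genes differently. ITSN2, an endocytic scaffold gene, had 1.40 peaks per 100 kb and library in 159 kb, the most of the genes in the plot of peaks per library, with 20 peaks over 7 libraries. LTBP1 had 0.712, BIRC6 0.637 and NCOA1, a coactivator of nuclear receptors, 0.636. LRRTM4 had 0.502 and CTNNA2 0.190. At the mean density of the arm ITSN2 would hold 4.59 peaks and CTNNA2 42.4. Further genes with many peaks were WDPCP with 22 and EXOC6B, a subunit of the exocyst, with 17. BIRC6, an inhibitor of apoptosis, held 15, as did MTA3, a subunit of a nucleosome remodelling complex.

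**Figure D4:**
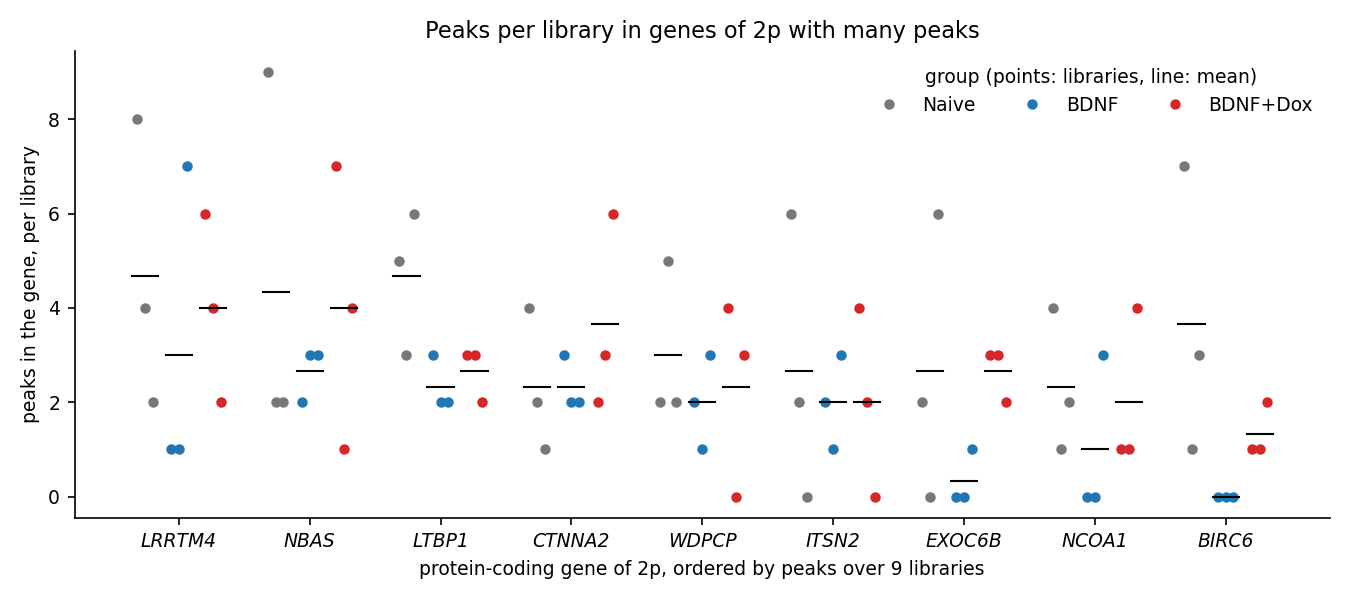
Peaks per library in protein-coding genes of 2p with many peaks. Each point is the number of peaks of a library in the gene, coloured by group, and the line is the mean of 3 libraries. Most groups overlap within a gene, and in BIRC6 the 3 BDNF libraries are at 0.

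No gene of 2p passed the test of peak number. limma was fitted over the 696 protein-coding genes of the genome with a mean of 1 or more peaks per library, 29 of them on 2p, and 0% passed an adjusted p of 0.05 in any comparison. At an unadjusted p of 0.05, 30, 47 and 31 genes of the genome passed for BDNF+Dox against BDNF, BDNF+Dox against Naive and BDNF against Naive, of which 2, 0 and 2 were on 2p. The first pair was DNAH6, an axonemal dynein gene, and EXOC6B, and the second ATAD2B and BIRC6. EXOC6B, picked here by its unadjusted p, held 2, 0 and 6 peaks in Naive, 0, 0 and 1 in BDNF and 3, 3 and 2 in BDNF+Dox. The fitted difference between BDNF+Dox and BDNF was 1.68 ± 0.85 (log2, SE, limma adjusted p = 0.981). With 4-fold changes simulated in the gene table, 27.6% were recovered, so differences below that size were mostly not detectable at these peak numbers. These simulated counts, too, varied by counting error only.

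A few genes of 2p had a peak in every library of a group and in none of another. For Naive and not BDNF these were 5, namely ACYP2, BIRC6, DNAH6, EFR3B and SLC8A1, among 259 genes with a peak, where the same held for 0.785% of 7004 such genes in the genome. BIRC6 held 7, 1 and 3 peaks in Naive, 0 in every BDNF library and 1, 1 and 2 in BDNF+Dox. DNAH6 held 3, 1 and 2 in Naive, 0 in every BDNF library and 3, 1 and 2 in BDNF+Dox. Both therefore also counted for BDNF+Dox and not BDNF, with ASAP2, a regulator of Arf GTPases, making 3 genes (1.03% in the genome). SLC8A1, a sodium and calcium exchanger, held 2, 1 and 2 peaks in Naive, 0 in every BDNF library and 0, 0 and 1 in BDNF+Dox. EFR3B held 1 peak in each Naive library and 0 in the other 6, and with PUM2 formed the 2 genes in Naive and not BDNF+Dox (0.4% in the genome). ASAP2 held 1, 2 and 1 peaks in BDNF+Dox and 0 in the other 6 libraries, and with COMMD1 formed the 2 genes in BDNF+Dox and not Naive (0.742%). No gene of 2p had peaks in all BDNF libraries and in none of Naive or of BDNF+Dox (0.171% in the genome each). With equal peak numbers per library the 5 genes became 2, the 3 became 1 and both pairs became 0. These genes were chosen after their values were seen.

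Peaks rarely recurred at the same position. Merging peaks that overlap by 1 bp or more gave 2593 regions on 2p, of which 91 (3.51%, against 2.37% in the genome) had a peak in 2 or more of 9 libraries. In 3 or more there were 8 (0.309%, against 0.137%), and in 4 or more there were 0. A single region of 2p had peaks in every library of a group but not in another group (0.00762% of regions in the genome). It had a peak in 3 of 3 Naive, 0 of 3 BDNF and 0 of 3 BDNF+Dox libraries. In the genome 0.00457% of regions had peaks in all Naive and no BDNF libraries, and 0.00305% in all Naive and no BDNF+Dox libraries. For BDNF+Dox and not Naive, and for BDNF+Dox and not BDNF, 2p had 0 regions (0.00305% each in the genome). With peaks of −log10 p of 3 or more, with an overlap of 50% of the shorter peak, or with equal peak numbers, no such region of 2p was left. The other 7 regions in 3 libraries mixed the groups. They included regions in MYT1L, a neuronal transcription factor gene, NT5C1B, RMDN2 and SOS1, and 2 at sites without a gene.

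MYCN itself spans 6.46 kb at chr2:15940550-15947004 and would hold 0.187 library peaks at the mean density of the arm. It held no peak in any of the 13 lists. The nearest library peak was 14.4 kb away in Naive replicate 3, and in the other libraries between 45.4 and 690 kb. Within 250 kb of it lay 2, 1 and 1 peaks in Naive, 1, 0 and 3 in BDNF and 5, 0 and 2 in BDNF+Dox, with overlapping groups. The nearest pooled narrow peaks were 71.7 kb away over BDNF and 58.4 kb over Naive.

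From MYCN to the end of ALK the arm measures 14.0 Mb, 14.9% of its length. The stretch held 14.4%, 13.3% and 13.8% of the 2p peaks in Naive, 12.1%, 11.3% and 16.1% in BDNF and 14.1%, 14.6% and 15.2% in BDNF+Dox. The groups overlapped. Naive replicate 1 lay above BDNF+Dox replicate 1, and BDNF replicate 3 was the highest of all 9 libraries. Their means were 13.9% ± 0.529 (SD, n = 3), 13.2% ± 2.57 and 14.6% ± 0.564, and BDNF+Dox stood 1.44 percentage points above BDNF. This did not exceed the spread (exact permutation test over 3 groups, p = 0.536, adjusted over 3 measures 0.607). Without BDNF replicate 3 the difference between BDNF+Dox and BDNF was 2.91 points and the exact permutation p over 3 groups 0.00714. In the pooled narrow lists the stretch held 114 of 512 peaks over BDNF (22.3%, exact 95% interval 18.7% to 26.1%) and 96 of 437 over Naive (21.97%, 18.2% to 26.2%). The stretch lies in the part below 50 Mb, which was dense as a whole in these lists. That part held 7.38 narrow peaks per Mb over BDNF and 6.64 over Naive, against 3.33 and 2.44 from 50 Mb on. Whether the stretch exceeded the rest of the outer part was not tested.

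ALK, which spans 729 kb at chr2:29192774-29921586, held 11 library peaks, at 2, 0 and 2 in Naive, 0, 1 and 0 in BDNF and 3, 2 and 1 in BDNF+Dox. BDNF+Dox libraries reached from 1 to 3 and BDNF from 0 to 1, a fitted difference of 1.27 ± 0.89 (log2, SE, limma adjusted p = 0.981). At the mean density of the arm a gene of this length would hold 21.1. In the pooled narrow lists ALK held 4 peaks over BDNF and 12 over Naive, and in the broad lists 16 and 25. Folds of the 12 ranged from 1.96 to 3.36 in the authors' deposited table, and their lowest q was 0.2496. Of these 12, 1 overlapped a peak of a BDNF+Dox library, and of the 4 over BDNF 0 did. The single ALK peak with q of 0.05 or less came from BDNF+Dox replicate 3, at chr2:29448963-29449205, with a 5.50-fold enrichment and q = 0.0358 by the authors' deposited table. A peak over Naive also lay beside the end of ALK where transcription starts, at chr2:29922219-29922416, with a 3.47-fold enrichment and q = 0.564 by the authors' deposited table.

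The other genes with most pooled narrow peaks were also long, from 296 kb (DTNB) to 1463 kb (CTNNA2). Whether they share a function was not tested. PRKCE, a protein kinase C gene, held 6 narrow peaks over BDNF and 10 over Naive, with 11 library peaks at 1, 2 and 0 in Naive, 2, 1 and 1 in BDNF and 0, 1 and 3 in BDNF+Dox. SNTG2, a syntrophin gene near the tip of the arm, held 6 and 4, and its library peaks were 2, 0 and 0, then 0, 1 and 0, then 2, 1 and 3. DTNB, a dystrobrevin gene, held 3 and 7, NBAS 7 and 5, and CTNNA2 6 and 7. By library peaks ALK and PRKCE tied at 11 with SOS1, which held 0 narrow peaks over BDNF and 1 over Naive, and LTBP1 with 29 library peaks held 2 and 0.

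**Figure D5:**
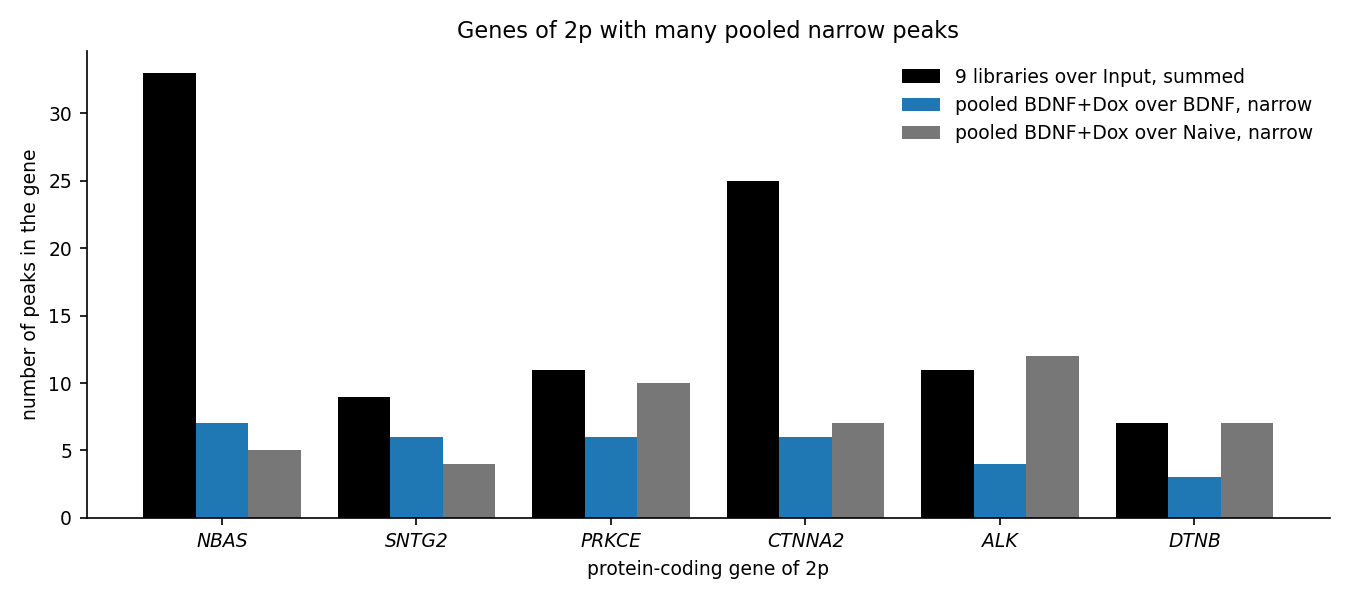
Peaks in genes of 2p with many pooled narrow peaks. For each gene the bars give the number of peaks in the 9 libraries summed, in the pooled list over BDNF and in that over Naive, on a vertical axis from 0. ALK is the only one of these genes with more narrow peaks over Naive (12) than library peaks (11), while DTNB has 7 of each.

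The strongest single peaks of the pooled lists lay mostly outside protein-coding genes. A q of 0.05 or less was reached by 5 of the 512 peaks over BDNF by the authors' deposited table, where 0.822% of all 9850 did. One was inside MSH6, a DNA mismatch repair gene, at chr2:47795958-47796180 with a 4.02-fold enrichment and q = 0.0330 by the authors' deposited table. MSH6 held 0 peaks in all 9 libraries. The lowest q, 0.0122 in the authors' deposited table, belonged to a peak at chr2:7714947-7715134, 639 kb from the nearest protein-coding gene, RNF144A. The others lay 8.85 kb from DTNB (q = 0.0212), in the long noncoding RNA gene LINC00299 (q = 0.0465) and 57.5 kb from TDRD15 (q = 0.0493), by the authors' deposited table. Of these 5 peaks 1, the peak near DTNB, overlapped a peak of a BDNF+Dox library, and none overlapped a Naive or BDNF library peak.

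Among the 437 peaks over Naive, 2 reached q of 0.05 or less in the authors' deposited table, where 1.01% of all 7882 did. They lay at chr2:83723616-83723804, 700 kb from SUCLG1 (q = 0.0129 in the authors' deposited table), and at chr2:64378967-64379165, with LGALSL as the nearest protein-coding gene (q = 0.0131 in the authors' deposited table). Neither overlapped a peak of any library. Of all pooled narrow peaks of 2p, 12.9% over BDNF and 14.2% over Naive overlapped a BDNF+Dox library peak, against 17.9% and 18.3% over the genome. Among the library lists 10 peaks of 2p had q of 0.05 or less (0.29% of all library peaks did), of which 3 came from Naive, 2 from BDNF and 5 from BDNF+Dox libraries. Over chromosomes 1 to 22 and X such peaks averaged 33.7 per Naive, 15 per BDNF and 16.3 per BDNF+Dox library. On 2p, BDNF+Dox replicate 3 alone held 3 of the 5. The lowest q, 0.00417 with a fold of 5.77 in the authors' deposited table, was in BABAM2, a BRCA1 complex gene, in BDNF+Dox replicate 3. A pooled peak over Naive overlapped it (q = 0.0887 in the authors' deposited table).

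Peaks at the ends of protein-coding genes were few and weak. The 3 of smallest q over BDNF lay at SNTG2 (q = 0.268), MFSD2B and RRM2 (both 0.486), and those over Naive at WDR43 (0.107), PPP3R1 (0.214), the regulatory subunit gene of calcineurin, and RPS7 (0.444), a ribosomal protein gene, all by the authors' deposited table. RRM2 encodes a subunit of ribonucleotide reductase. Of these named peaks, that at SNTG2 overlapped a peak of a BDNF+Dox library.

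Gene groups on 2p were read by their counts beside all 471 protein-coding genes, which held 3.08 library peaks per Mb and library. Of 15 neuroblastoma genes 10 had a library peak (62 peaks, 2.83 per Mb), led by NBAS and ALK, with GREB1 and LPIN1 at 4 each, while MYCN, ID2 and ODC1 had 0. Of 24 genes listed for neuronal adhesion and synapse 19 had one (157 peaks, 2.84 per Mb), among them LRRTM4, CTNNA2 and CCDC85A (12). That list also holds CAD and KHK, which are metabolic enzymes. Of 26 kinase and signalling genes 22 had one (169 peaks, 3.84 per Mb), led by LTBP1, NCOA1, BIRC6 and VRK2 (14). Of 29 transcription and chromatin genes 15 had one (39 peaks, 2.04 per Mb), led by MYT1L (10) and STRN (6), with the neurodevelopmental factors SOX11, SIX3, OTX1 and EMX1 at 0. These are short genes that would hold between 0.13 and 0.54 peaks each at the mean density of the arm.

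Of 4 genes listed for retinoic acid response, CRIM1 held 10 peaks, at 3, 1 and 3 in Naive, 2, 0 and 0 in BDNF and 0, 0 and 1 in BDNF+Dox, MEIS1 held 2, and CYP26B1, which degrades retinoic acid, and RDH14 held 0. The fitted difference of CRIM1 between BDNF+Dox and Naive was -1.79 ± 0.95 (log2, SE, limma adjusted p = 0.788). Of 11 genes listed for DNA repair and replication 8 had a peak (38 peaks, 2.90 per Mb), 17 of them in EXOC6B, which is no repair gene, and 6 in FBXO11. HTRA2 and ATP6V1B1, the 2 genes listed for synuclein and Parkinson disease, had 0. In the fit by peak number, 2 neuroblastoma, 5 adhesion, 10 signalling, 1 chromatin, 1 retinoic acid and 1 repair gene could be tested, and 0 passed in either direction in any comparison.

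Of 19 marker genes of other cell types on 2p (lymphocytes, liver and gut, lung, gonad, thyroid and muscle) 7 had a library peak, 14 peaks in all or 1.61 per Mb. CD8A, CD8B, GNLY, FABP1 and SFTPB were at 0 in all libraries. The markers summed to 2.33 ± 0.577 (SD, n = 3) peaks per Naive library, 0.667 ± 1.15 per BDNF library and 1.67 ± 2.08 per BDNF+Dox library. Peaks show a histone mark and not expression, so these genes do not test which cells were present.

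Genes of long noncoding RNAs on 2p also held many peaks. LINC01317 held 37 in 591 kb, at 10, 3 and 7 in Naive, 2, 1 and 7 in BDNF and 4, 1 and 2 in BDNF+Dox, with overlapping groups. In the pooled narrow lists it held 3 peaks over BDNF and 3 over Naive. Genes of this class were not part of the fit.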

How the data were processed

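H4R3me2s ChIP-seq peak lists of 9 SH-SY5Y libraries (3 Naive, 3 BDNF, 3 BDNF+Dox) and 4 pooled lists were used. The submitters' processing notes name cutadapt 1.1, Trimmomatic 0.32, Bowtie without a version, the build GRCh38 and, for peak calling, MACS2 2.2.7.1. Narrow peaks of every library were called over the 1 Input with a p cutoff of 0.01, per the file headers, and merged BDNF+Dox reads over merged BDNF or merged Naive reads for narrow and broad peaks. The deposited files give each peak's length, pileup signal, −log10 p-value, −log10 q-value and fold enrichment, a ratio over the local background, all computed by the authors. These values were used only within their list. Calls test for more signal in the ChIP or in BDNF+Dox only. Depth was 17164402 to 18928589 reads kept per library and 17074000 for the Input, per the file headers. The lists hold no reads per region.

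Local background was computed as (pileup + 1)/fold − 1 and divided by the genome background from the headers. Peaks were counted on 2p, in 5 Mb bins and in RefSeq gene spans. Bins with a mean of 2 and genes with a mean of 1 or more peaks per library were fitted over the whole genome with limma 3.58.1 (R 4.3.3, trend, 0.5 peaks added, Benjamini-Hochberg). The fit was checked on lists simulated with counting error only. Shares and densities were tested by exact permutation (SciPy 1.17.1). Intervals are exact binomial. Start-site windows were taken from RefSeq.

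Named genes were MYCN, ALK, the 10 protein-coding genes with most library peaks, the 5 with most peaks per pooled narrow list, those with a pooled peak at q of 0.05 or less, the 3 gene-end peaks of smallest q per list, those at recurring regions and up to 4 members of each list. Some results of this rule are not reported here. All others were named after their values were seen. The members and lists were chosen with earlier results of these data known. Alternatives were other peak thresholds, bin widths, overlaps, pseudocounts, filters and scalings, equal peak numbers, and leaving out each library.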

Additional observations from a re-analysis of the deposited data

How the results depend on the processing

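The values of 2p shares and densities, the counts of called bins and genes, and the recurring regions were recomputed under 156 alternatives. Of these, 140 were counted as unchanged. For library shares and densities this meant the same direction and side of the threshold, whatever the size. Counts had to stay within 1.5-fold, pooled shares within the binomial interval and the split ratio within the SD. The stretch difference of 4.98 points at −log10 p of 5 or more, against 1.44 in the main setting, thus counted as unchanged. The higher density of 2p than of the rest of the genome kept its call in 12 of 12, between 0.27 and 0.41 on the log2 scale (exact permutation p up to 0.0234). Leaving out each library moved the 2p share of BDNF+Dox minus that of BDNF between -0.0120 (without BDNF+Dox replicate 3) and 0.497 percentage points, and that of the MYCN to ALK stretch between 0.503 and 2.91 points (without BDNF replicate 3, where the 3 groups passed). Called bins ranged from 0 to 3 for BDNF+Dox against BDNF (3 without BDNF replicate 3) and from 0 to 1 for BDNF against Naive (1 without Naive replicate 2 or replicate 3), none on 2p. Deviations of same-numbered libraries from their group means had correlations over bins between -0.171 and 0.0776. On 2p 96.5% of regions had a peak in only 1 library. Such sparse lists cannot show whether the numbers pair the libraries. With the replicate number as a block, 2 bins were called for BDNF against Naive and 0 for the others, none on 2p. Under the replicate block the exact permutation p was 0.694 for the 2p share and 0.528 for the stretch. The 2p region in all 3 Naive libraries was lost under all 3 alternatives, with a count of 0 at −log10 p of 3, at 50% overlap and with equal peak numbers. The 2p share of the pooled list over Naive was 6.64% at −log10 p of 5 or more. Genes with a peak in all Naive and no BDNF library fell from 5 to 2 at −log10 p of 3 or with equal peak numbers, those in Naive and no BDNF+Dox library from 2 to 0 under both, those in BDNF+Dox and no Naive library from 2 to 0 and in BDNF+Dox and no BDNF library from 3 to 1, with equal peak numbers. Without scaling by the library's peak number the median of all bins moved to 0.44 for BDNF+Dox minus BDNF and to -0.49 for BDNF minus Naive (log2), and the median of the 2p bins to 0.61 and -0.66. With the split of 2p at 45 to 55 Mb the density ratio lay between 1.42 and 1.53. The causes of these changes were not tested. The lenient threshold, the single Input and the few peaks per gene limit what these lists can show.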
